A study of Mus musculus with 6 samples.

Results

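The 54 genes described here build the DNA replication machinery and supply its deoxynucleotides. They were chosen by gene symbol from a list of origin licensing factors, fork proteins, polymerases, nucleotide enzymes and factors of the G1/S transition, the step at which a cell commits to copying its genome. All 54 were among the 16472 genes of the authors' deposited table. HT22 cells are an immortalised line from mouse hippocampus and serve as a neuron-like model. The small molecule AA147 is known to activate the stress regulators ATF6 and NRF2. Cultures of HT22 cells were treated for 16 h with AA147, at a concentration given in the labels as 10 mM, or with the vehicle DMSO, in medium with fetal bovine serum. Each group had 3 libraries of non-stranded mRNA sequencing, 6 in all, and nothing in the labels says whether they came from separate cultures, so p-values may measure technical spread only.

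DNA replication starts at origins, which the origin recognition complex (ORC) marks and on which CDC6 and CDT1 load the ring of MCM proteins in G1. At the start of S phase the kinase of CDC7 and DBF4, together with cyclin-dependent kinase, recruits CDC45 and the GINS complex to this ring and turns it into an active helicase. Polymerases alpha, delta and epsilon, the sliding clamp PCNA, its loader RFC and the single-strand binding protein RPA then copy the strands, while ribonucleotide reductase and the thymidylate enzymes supply the building blocks. Many of these genes are textbook targets of the E2F transcription factors, and in cultures that divide their mRNA levels move with the share of cells in S phase. In bulk RNA, a change in the share of cells in a phase and a change in RNA per cell cannot be told apart.

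The authors' deposited table gives each gene 1 fold change and does not list libraries singly. The numerator of the fold change is not named, so a positive value is taken here to mean a higher level with AA147, and every direction below is conditional on that reading. Known targets of the compound's 2 regulators had opposite signs in the authors' deposited table, with Nqo1, a target of NRF2, at 0.93 (SE 0.067) and Hspa5, a target of ATF6, at -0.80 (SE 0.061), so they do not settle the reading. Of 16 neuronal markers, 13, among them Rbfox3, Map2 and Snap25, had no line in the authors' deposited table. The other 3 differed in sign. Tubb3, the most abundant at a mean of 1199 normalized counts, rose by 0.43 (adjusted p 5.67e-05). Eno2 lay at -0.30 (mean 62.1, adjusted p 0.536) and Slc17a7 at -1.98 (mean 3.93, without an adjusted p). Of 5 astrocyte markers 2 were listed, Slc1a3, which fell at -1.30 (adjusted p 2.39e-45), and Aldh1l1 at -0.48 (adjusted p 0.484), per the authors' deposited table. Of 5 microglia and macrophage markers 2 were listed, with opposite signs. Csf1r rose by 0.95 (adjusted p 0.0278) at a mean of 48.0 normalized counts, and Itgam lay at -0.51 at a mean of 1.71, without an adjusted p. Of 4 neural progenitor markers none was listed. Of 5 oligodendrocyte markers 2 were listed, with means up to 29, and of 4 endothelial markers 3, with means up to 6. All 8 fibroblast and mesenchymal markers were listed, 5 of them, Col1a1 among them, with an adjusted p under 0.05 and a negative sign. Thy1, Vim and Acta2 were not called, at -0.03, -0.08 and 0.01. The summed level of the 8 was 425148 with AA147 and 766101 with vehicle as implied by the deposited means and fold changes. Most of that difference lay in collagen genes, with Col1a1 at 72014 and 206337 and Col1a2 at 171534 and 336475. The part of these markers in the results below was not tested.

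Of the 54 genes, 9 rose and 3 fell in the authors' deposited table at an adjusted p below 0.05. ORC subunits Orc5 and Orc6, the loader Cdc6, the firing factors Mcm10 and Dbf4, the single-strand binding subunit Rpa1, both subunits of ribonucleotide reductase, Rrm1 and Rrm2, and the methylation factor Uhrf1 were higher. The helicase subunit Mcm3, the DNA ligase Lig1 and the dUTPase Dut were lower. The called share of 22.2% lay near the 20.2% of all 13597 genes tested and below the 25.4% of the 8638 tested genes with a mean within the range of these 54, so their number of calls is no result about them. By direction, 16.7% were called positive, where 9.05% of all genes tested and 11.7% of those in the same range of means were, and 5.56% were called negative, where 11.1% and 13.7% were. The authors' deposited table puts the 54 log2 fold changes between -0.31 and 0.46, around a median of 0.05, where the median over all genes tested was 0.01. When each change was tested against a band of 0.1 (log2) around no change, 4 of the 54 were called, Orc5, Rpa1, Lig1 and Dut. With the test statistic divided by its robust SD over abundant genes, 2.03, none was called and 4 had an unadjusted p under 0.05.

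Every one of the 54 genes was expressed well enough to be tested, with means from 325 normalized counts for Gins3 to 17428 for Rrm1 in the authors' deposited table. Their standard errors (SE) ran from 0.053 to 0.133, and none reached 1.5 times the SE typical of genes at the same level (the median over neighbours in mean), the highest ratio being 1.16. The 95% intervals, computed as normal intervals from the authors' SEs, lay within 0.5 on either side of no change for 53 of the 54, with Orc5 the exception. Only Orc5 and Dut, 2 of the 54, had a log2 fold change of 0.3 or more in size, and Rpa1, which rounds to that value, lay just under it. Another 8 genes had an unadjusted p under 0.05 but missed the adjusted threshold, 6 positive and 2 negative, and the nearest of them was Mcm8, a helicase of recombination repair, at 0.21 (adjusted p 0.054).

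**Figure D1:**
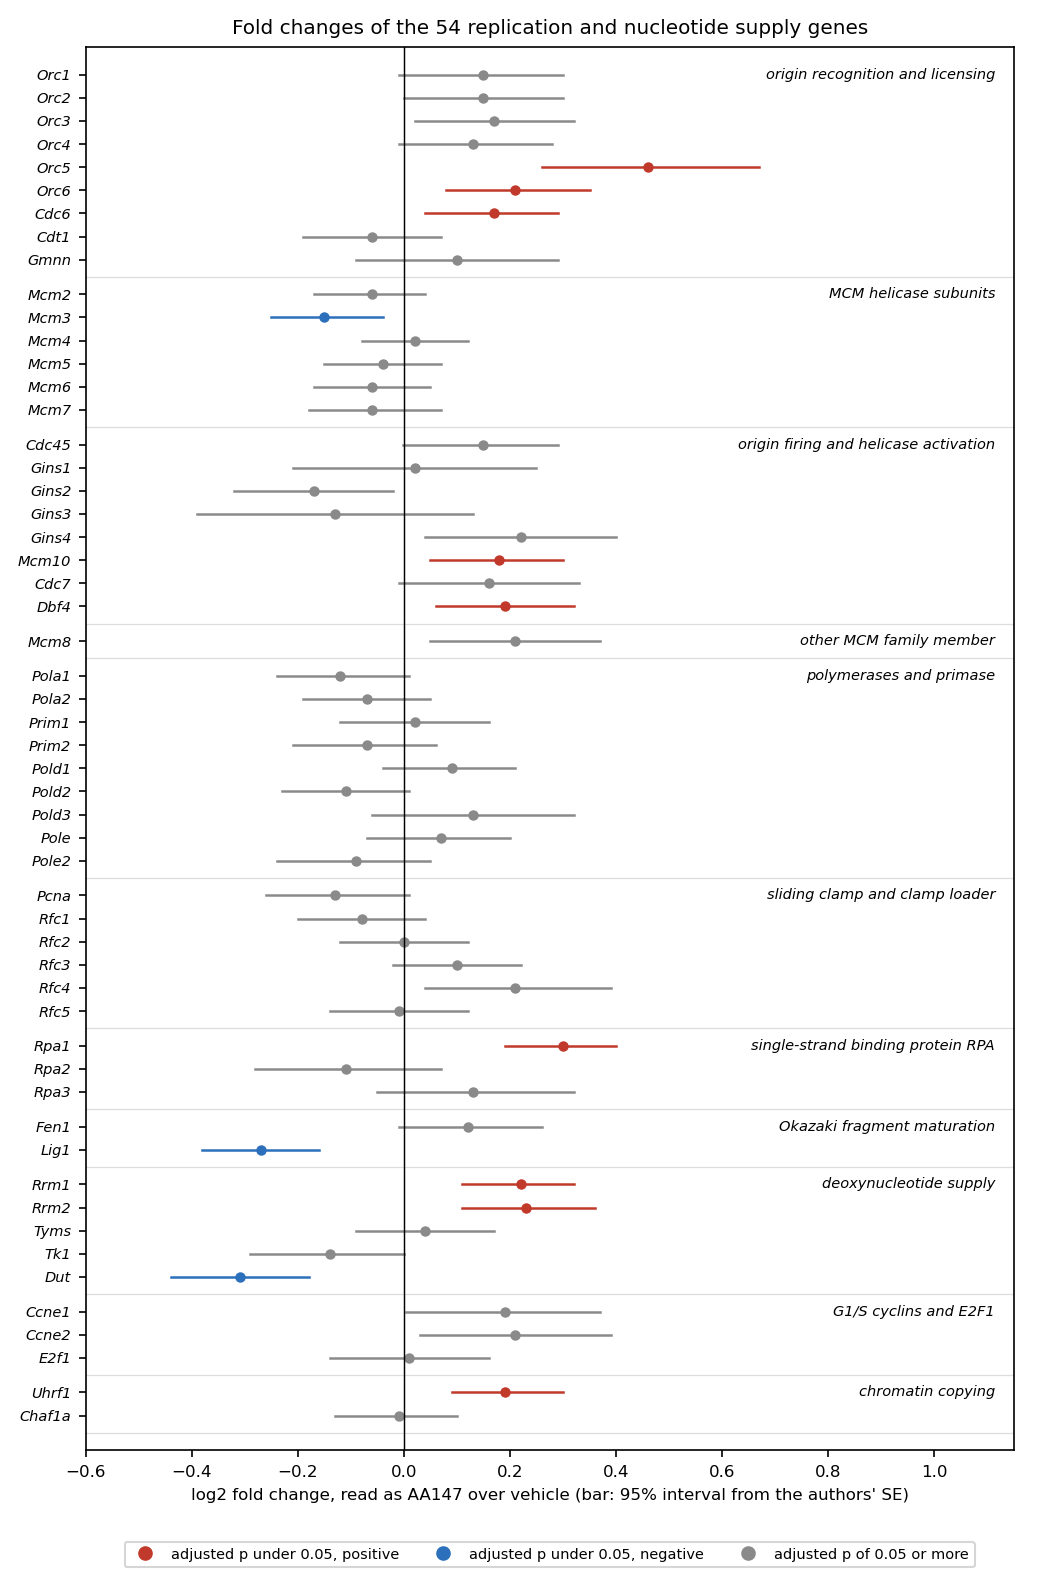
Log2 fold change of each of the 54 genes (x axis, read as AA147 over vehicle) in the authors' deposited table, grouped by role, with 95% intervals from the authors' SEs; colour marks the 9 genes called positive and the 3 called negative. Orc5 lies farthest right at 0.46 and Dut farthest left at -0.31, and the 6 MCM subunits sit between -0.15 and 0.02.

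To show what these genes share in sequence, the window from 250 bases before to 50 after each start was searched in the RefSeq promoter table (build GRCm38.p6), in which 45 of the 54 had an entry. Gmnn, Mcm4, Gins1, Gins2, Gins4, Prim2, Pole, Rfc2 and Ccne2 were not searched. The E2F words were TTTCCCGC, TTTCGCGC, TTTGCCGC and TTTGGCGC, the CCAAT box was CCAAT, and the cell cycle homology region (CHR), an element of genes expressed in late cell cycle, was TTTGAA, each on both strands. In the lines below, the 250 bases before the start are given 5′ to 3′ along the gene, with every such word in capitals. Mcm5, Mcm6, Cdc6 and Uhrf1 are shown because they hold an E2F word, Rpa1 and Dut because they were among the genes with the clearest changes and hold none, and the mitotic gene Ccnf for contrast. The positions are chr8:75109259-75109508, + strand for Mcm5, chr1:128359706-128359955, - strand for Mcm6, chr11:98907901-98908150, + strand for Cdc6, chr17:56304063-56304312, + strand for Uhrf1, chr11:75348384-75348633, - strand for Rpa1, chr2:125247265-125247514, + strand for Dut and chr17:24251410-24251659, - strand for Ccnf.
Mcm5: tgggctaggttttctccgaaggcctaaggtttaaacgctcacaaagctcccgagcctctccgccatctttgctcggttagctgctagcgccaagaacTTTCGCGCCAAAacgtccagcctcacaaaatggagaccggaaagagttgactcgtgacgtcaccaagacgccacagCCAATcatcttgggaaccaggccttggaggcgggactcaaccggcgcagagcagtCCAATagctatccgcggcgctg
Mcm6: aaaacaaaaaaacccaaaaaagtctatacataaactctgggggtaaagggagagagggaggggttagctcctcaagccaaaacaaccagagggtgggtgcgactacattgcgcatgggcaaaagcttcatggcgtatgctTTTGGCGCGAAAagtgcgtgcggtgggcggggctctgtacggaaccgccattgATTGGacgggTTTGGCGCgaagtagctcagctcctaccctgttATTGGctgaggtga
Cdc6: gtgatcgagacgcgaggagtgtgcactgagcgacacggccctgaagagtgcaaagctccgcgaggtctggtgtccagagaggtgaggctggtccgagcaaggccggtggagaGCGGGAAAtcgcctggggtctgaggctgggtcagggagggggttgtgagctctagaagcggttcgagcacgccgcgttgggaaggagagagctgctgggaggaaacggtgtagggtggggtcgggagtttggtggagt
Uhrf1: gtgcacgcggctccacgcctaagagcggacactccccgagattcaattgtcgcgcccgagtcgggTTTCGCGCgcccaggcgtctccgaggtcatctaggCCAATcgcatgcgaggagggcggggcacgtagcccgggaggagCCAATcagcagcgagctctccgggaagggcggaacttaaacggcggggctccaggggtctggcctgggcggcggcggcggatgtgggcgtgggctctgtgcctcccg
Rpa1: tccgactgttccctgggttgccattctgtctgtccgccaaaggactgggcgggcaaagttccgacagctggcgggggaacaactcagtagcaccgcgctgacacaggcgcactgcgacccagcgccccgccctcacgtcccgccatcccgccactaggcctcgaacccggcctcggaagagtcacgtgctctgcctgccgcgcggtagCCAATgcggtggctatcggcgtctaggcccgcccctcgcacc
Dut: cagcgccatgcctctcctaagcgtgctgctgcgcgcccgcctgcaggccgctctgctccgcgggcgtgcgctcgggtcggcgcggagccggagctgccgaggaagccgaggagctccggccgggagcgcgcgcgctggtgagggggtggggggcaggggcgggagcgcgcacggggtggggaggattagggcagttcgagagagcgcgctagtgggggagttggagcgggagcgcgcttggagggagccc
Ccnf: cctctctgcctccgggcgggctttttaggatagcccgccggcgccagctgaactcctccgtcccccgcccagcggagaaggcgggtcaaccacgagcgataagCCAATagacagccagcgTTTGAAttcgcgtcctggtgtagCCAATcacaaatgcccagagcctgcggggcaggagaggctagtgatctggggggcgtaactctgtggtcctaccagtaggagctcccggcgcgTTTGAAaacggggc

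In Mcm5 and Mcm6, 2 E2F words on opposite strands overlap and are seen as a single run of capitals, from -153 to -142 in Mcm5 and from -110 to -99 in Mcm6, counted from the start. Mcm6 holds another E2F word from -47 to -40, and Cdc6 holds its only one from -138 to -131. Uhrf1 has 2 start windows in the table, and the E2F word lies in the one shown. An E2F word was found in 37.8% of the 45 genes (17), in 4.59% of the 9587 tested genes with a promoter entry and in 1 of 20 mitotic genes, 5%. The CCAAT box was held by 57.8% of the 45 genes, 43.9% of the tested genes and 85% of the mitotic genes. The CHR word showed the opposite pattern to the E2F words, with 15.6% of the 45 genes, 14.4% of the tested genes and 70% of the mitotic genes; Ccnf holds 2 CHR words and 2 CCAAT boxes in the bases shown.

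The 17 genes with an E2F word had a median log2 fold change of -0.04, with 2 called positive, Cdc6 and Uhrf1, and 2 called negative, Mcm3 and Lig1, in the authors' deposited table. The 28 searched genes without one had a median of 0.13, with 7 called positive and 1 called negative. Over all genes tested, the medians were 0.03 for the 440 with an E2F word and 0.01 for the 9147 without. Of the 440, 39 were called positive and 44 negative, and of the 9147, 889 and 1054. The difference between replication genes with and without a word was not tested. A match is a description of these letters and shows no binding.

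**Figure D2:**
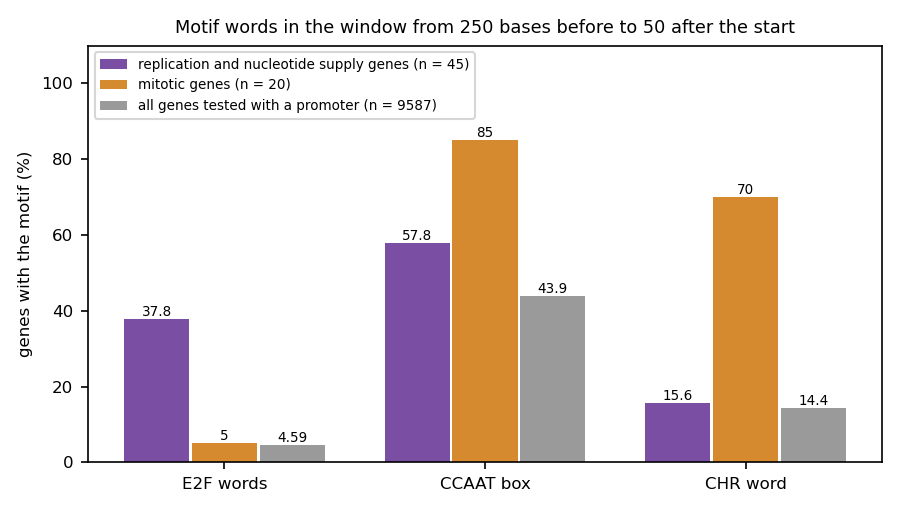
Share of genes (y axis, %) with at least 1 E2F word, CCAAT box or CHR word in the window from 250 bases before to 50 after the start, for 45 replication and nucleotide supply genes, 20 mitotic genes and 9587 tested genes. E2F words were held by 37.8% of the replication and nucleotide supply genes and CHR words by 70% of the mitotic genes.

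All 6 ORC subunits, which mark origins, had positive fold changes, and 2 of them rose at the adjusted threshold in the authors' deposited table. The called share was 33.3%, where 20.2% of all genes tested and 25.4% of those in the 54 genes' range of means were called. A positive sign was held by 7026 of the 13597 genes tested. Orc5 had the largest change of the 54 genes. Its mean of 680 normalized counts and log2 fold change of 0.46 (SE 0.104, adjusted p 0.000161) imply 788 counts with AA147 and 573 with vehicle, or 37.6% more, in the authors' deposited table. Such implied counts here divide the deposited mean between 2 groups of equal size by the deposited fold change. Orc6, the smallest subunit, had a log2 fold change of 0.21 (SE 0.069, adjusted p 0.0139), or 15.8% more, in the authors' deposited table. Orc1, Orc2, Orc3 and Orc4 had closely similar values of 0.15, 0.15, 0.17 and 0.13, with adjusted p from 0.0932 to 0.212 in the authors' deposited table. The 95% interval of Orc5 ran from 0.26 to 0.67 and overlapped those of the other 5 subunits, of which the highest, that of Orc6, ended at 0.35.

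Among the loaders, Cdc6, the ATPase that joins ORC to load the MCM ring, had a log2 fold change of 0.17 (SE 0.063, adjusted p 0.0438) per the authors' deposited table, the call nearest to the threshold. This call was lost under 6 of the 8 alternatives run, among them centring on abundant genes (adjusted p 0.0697), and a processed pseudogene 95.3% identical over 32.7% of its transcript may share its reads. Cdt1, which brings the ring to the origin, lay at -0.06 (adjusted p 0.568) and its inhibitor geminin, Gmnn, at 0.10 (adjusted p 0.524) per the authors' deposited table. The interval of Cdt1 ran from -0.19 to 0.07 and that of Gmnn from -0.09 to 0.29, which leaves room for small changes in either direction.

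The 6 MCM subunits, which form the ring-shaped helicase in equal copies, were the most abundant group and lay close to no change. Their means ran from 9996 to 16262 normalized counts, and 5 of the 6 fold changes were negative in the authors' deposited table. Over all genes tested, 6571 of 13597 were negative. Mcm3 fell, at -0.15 (SE 0.054, adjusted p 0.038), which implies 11608 counts with AA147 and 12839 with vehicle in the authors' deposited table. Mcm2, Mcm6, Mcm7 and Mcm5 had values of -0.06, -0.06, -0.06 and -0.04, and Mcm4 one of 0.02, with adjusted p from 0.464 to 0.863 in the authors' deposited table. The lowest and the highest bounds of these 5 intervals were -0.18 and 0.12, so a change of the size seen for Orc5 lies outside all of them. The call of Mcm3 was lost when fold changes were centred on reference genes (-0.13, adjusted p 0.0681) or freed of a trend on transcript length, GC content and expression (-0.13, adjusted p 0.0591). It was also lost at an adjusted p under 0.01, against the band of 0.1 and with the statistic divided by its robust SD. A processed pseudogene 97.8% identical over 72% of the Mcm7 transcript makes the value of Mcm7 uncertain.

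Of the 8 genes that fire origins, 2 rose and none fell at the adjusted threshold. The called share was 25%, where 20.2% of all genes tested and 25.4% of those in the members' range of means were called. Dbf4, the regulatory subunit of the CDC7 kinase, had a log2 fold change of 0.19 (SE 0.065, adjusted p 0.0217), or 14.2% more, in the authors' deposited table. Mcm10, which helps to activate the helicase, had one of 0.18 (SE 0.065, adjusted p 0.0359) per the authors' deposited table, a call lost under centring on abundant genes (adjusted p 0.0577) and trend subtraction (adjusted p 0.0617). The Mcm10 call was also lost at an adjusted p under 0.01, against the band of 0.1 and with the statistic divided by its robust SD. The kinase Cdc7 itself lay at 0.16 (adjusted p 0.191) and the helicase cofactor Cdc45 at 0.15 (adjusted p 0.169) per the authors' deposited table. The 4 GINS subunits, which work as 1 complex, spread to both sides, with Gins4 highest at 0.22 (SE 0.092, adjusted p 0.078) and Gins2 lowest at -0.17 (SE 0.078, adjusted p 0.115) per the authors' deposited table. Gins1 at 0.02 and Gins3 at -0.13 lay between them. In GENCODE M39, 67.3% of the exon bases of Gins2 are shared with Gse1 on the opposite strand, which rose by 0.34 (adjusted p 0.012) per the authors' deposited table, and reads of the pair cannot be told apart without strand.

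None of the 9 polymerase and primase genes passed the threshold of the authors' DESeq2 test, and 0 had an unadjusted p under 0.05. Polymerase alpha and primase start each new strand, and their catalytic and accessory genes Pola1, Pola2, Prim1 and Prim2 had log2 fold changes of -0.12, -0.07, 0.02 and -0.07 in the authors' deposited table. For polymerase delta, which copies the lagging strand, the authors' deposited table gives 0.09 for Pold1, -0.11 for Pold2 and 0.13 for Pold3. For polymerase epsilon, which copies the leading strand, Pole lay at 0.07 and Pole2 at -0.09. The extremes of this group were Pola1 (SE 0.064, adjusted p 0.192) and Pold3 (SE 0.096, adjusted p 0.387) per the authors' deposited table. After subtraction of a trend on expression, transcript length and GC content, Pola1 was called at -0.19 (adjusted p 0.0204).

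The sliding clamp and its loader gave no call by the authors' DESeq2 test either, with 1 unadjusted p under 0.05, that of Rfc4. Pcna, the clamp that holds polymerases on DNA, had the lowest value of this group at -0.13 (SE 0.068, adjusted p 0.195) and Rfc4 the highest at 0.21 (SE 0.090, adjusted p 0.0792) per the authors' deposited table. Rfc1, Rfc2, Rfc3 and Rfc5, the other loader subunits, had values of -0.08, -0.00019, 0.10 and -0.01 in the authors' deposited table. Rfc4 shares 16.5% of its exon bases with Eif4a2 on the opposite strand, which rose by 0.39 (adjusted p 2.45e-10) per the authors' deposited table. A processed pseudogene 99.2% identical over 51.4% of the Pcna transcript makes the value of Pcna uncertain.

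Rpa1, the large subunit of the trimeric RPA that coats single-stranded DNA, had the smallest adjusted p of the 54 genes. Its log2 fold change was 0.30 (SE 0.056, adjusted p 2.55e-06), with 17460 implied counts with AA147 and 14227 with vehicle, or 22.7% more, in the authors' deposited table. Its partners Rpa2, at -0.11 (adjusted p 0.45), and Rpa3, at 0.13 (adjusted p 0.364), were not called in the authors' deposited table. The 95% interval of Rpa1 ran from 0.19 to 0.40 and that of Rpa2 from -0.28 to 0.07, without overlap, while that of Rpa3 ran from -0.05 to 0.32 and overlapped both. The differences between subunits were not tested. The opposite-strand neighbour Smyd4, which shares 3.17% of the Rpa1 exon bases, rose by 0.54 at a mean of 398 in the authors' deposited table.

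The 2 genes that finish lagging strand fragments had opposite signs. Lig1, the ligase that seals the fragments, fell at -0.27 (SE 0.055, adjusted p 1.48e-05), with 8240 implied counts with AA147 and 9951 with vehicle, in the authors' deposited table. Fen1, the nuclease that trims their ends, lay at 0.12 (SE 0.070, adjusted p 0.214) per the authors' deposited table. Their intervals, from -0.38 to -0.16 for Lig1 and from -0.01 to 0.26 for Fen1, did not overlap, and the difference itself was not tested. The lncRNA Gm10143 covers 59% of the Fen1 exon bases on the opposite strand in GENCODE M39, so the value of Fen1 is uncertain.

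Of the 5 genes of deoxynucleotide supply, 2 rose and 1 fell. Over all genes tested 20.2% were called, and of those in the members' range of means 25.4%. Both subunits of ribonucleotide reductase, which makes deoxynucleotides from ribonucleotides, rose by nearly the same amount in the authors' deposited table. Rrm1, the large subunit, had a log2 fold change of 0.22 (SE 0.055, adjusted p 0.000856), or 16.3% more, in the authors' deposited table. Rrm2, the small subunit that is made in S phase, had one of 0.23 (SE 0.063, adjusted p 0.0025), or 17.4% more, in the authors' deposited table. Dut, which breaks down dUTP and so both yields dUMP for thymidylate and keeps uracil out of DNA, fell at -0.31 (SE 0.067, adjusted p 6.59e-05), with 3238 implied counts with AA147 and 4009 with vehicle, in the authors' deposited table. Tyms, which makes thymidylate from dUMP, lay at 0.04 (adjusted p 0.761), and Tk1, which salvages thymidine, at -0.14 (adjusted p 0.163) per the authors' deposited table. Rrm2 shares 43.3% of its exon bases with the lncRNA Gm59512 on the opposite strand, and a processed pseudogene 95.5% identical covers 16% of its transcript. A pseudogene 95.1% identical over 27.2% of the Tyms transcript touches that gene too.

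Among the regulators of entry into S phase, the cyclin E genes Ccne1 and Ccne2, partners of CDK2, lay at 0.19 (adjusted p 0.153) and 0.21 (adjusted p 0.101) per the authors' deposited table. E2f1, the activator of many of the genes above, lay at 0.01 (SE 0.076, adjusted p 0.96), with an interval from -0.14 to 0.16. Of the 2 genes that copy chromatin marks and nucleosomes, Uhrf1, which recruits the maintenance methyltransferase to new DNA, rose by 0.19 (SE 0.055, adjusted p 0.00368) per the authors' deposited table. Chaf1a, the large subunit of the histone chaperone CAF-1, lay at -0.01 (SE 0.059, adjusted p 0.916). A processed pseudogene 98.3% identical covers 43.7% of the Uhrf1 transcript.

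Levels were compared between genes per kilobase of the GENCODE M39 canonical transcript, over both groups together. The MCM subunits ran from 2217 normalized counts per kb for Mcm5 to 5475 for Mcm6, and the ORC subunits from 315 for Orc5 to 1697 for Orc6, with no overlap between these groups of genes. Cdt1 stood at 3232, Rrm1 at 3677, its partner Rrm2 at 1938, and Pold2 at 3995 normalized counts per kb. At the lower end were Gins3 at 129, Ccne2 at 204 and Cdc7 at 213 normalized counts per kb. Subunits of one complex thus differed in level, with Rpa1 at 2944 against Rpa2 at 818 and Rpa3 at 1162 normalized counts per kb. The transcripts the authors counted over are not known, so these levels are approximate.

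**Figure D3:**
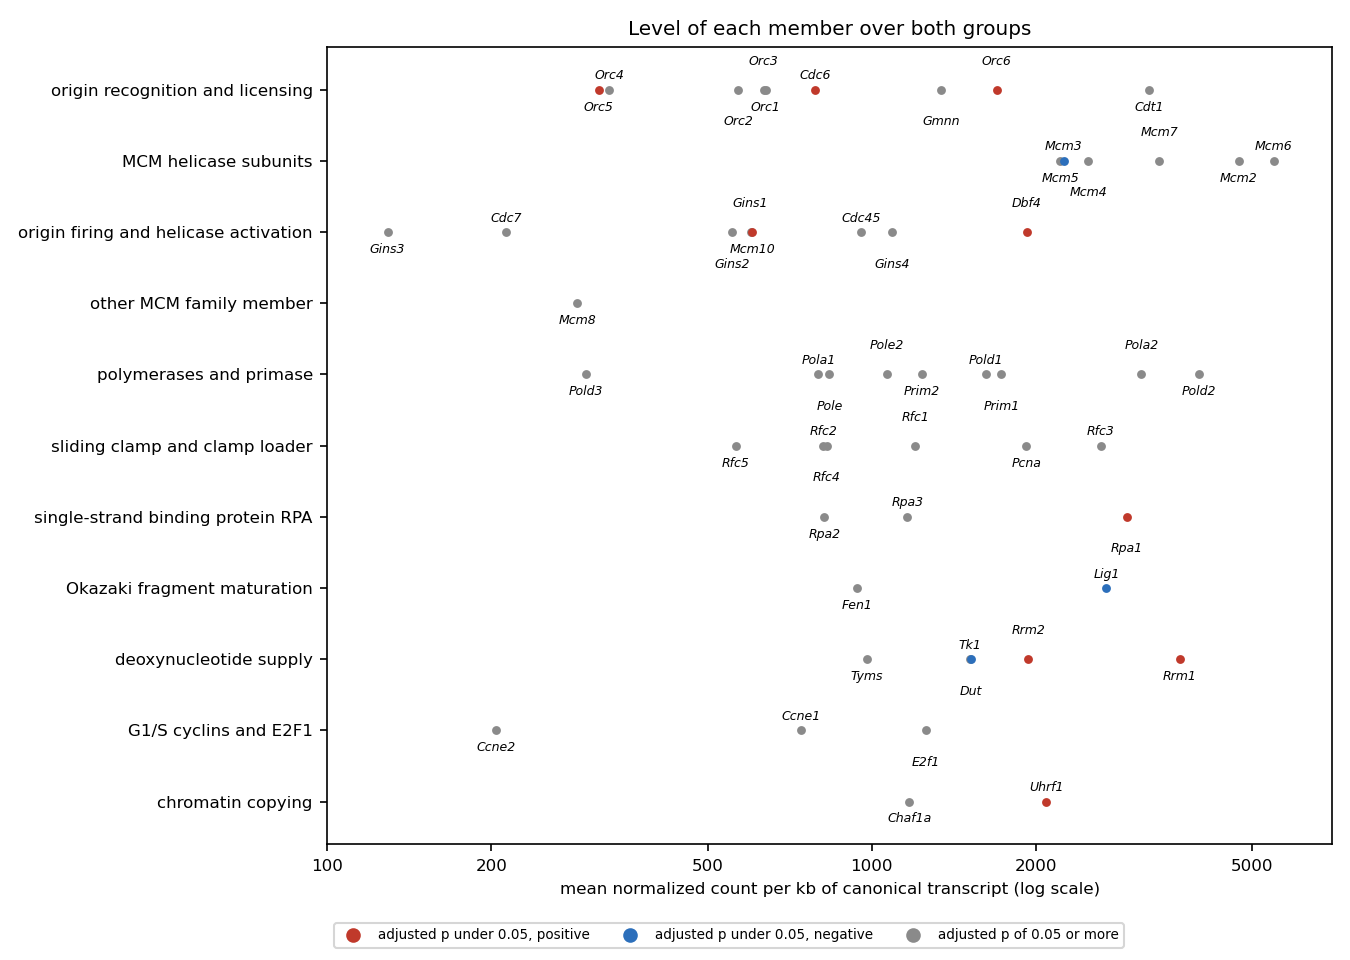
Mean normalized count per kb of canonical transcript (x axis, log scale) for each of the 54 genes, 1 point per gene over both groups together, arranged by role (y axis) and coloured by call. The MCM subunits lie between 2217 and 5475 and the lowest gene is Gins3 at 129.

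Values were also set out by level. The 18 genes with means from 5000 normalized counts up had a median fold change (log2) of -0.05, with 7 positive signs, 4 called positive and 2 called negative. The 36 genes below that had a median of 0.13, with 25 positive signs, 5 called positive and 1 called negative. Over all tested genes in the same range of means, the medians were -0.02 above and 0.02 below that level. Pooled over that whole range, 11.7% of tested genes were called positive and 13.7% negative, and 4599 of 8638 had a positive sign. Called shares were not computed above and below that level apart. The difference between the high and the low genes was not tested.

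The other genes of the pathway gave a similarly mixed picture. Of 30 fork accessory and checkpoint factors, 7 rose and 2 fell per the authors' deposited table, and the list's median was 0.10. The called share was 30%, where 20.2% of all genes tested and 25.4% of those in the members' range of means were called. Chtf8, of an alternative clamp loader, had the highest value at 0.32 (SE 0.078, adjusted p 0.000458), and Clspn, which links the fork to the checkpoint kinase CHK1, followed at 0.31 (SE 0.063, adjusted p 1.89e-05). The 2 that fell were Rnaseh2c, a subunit of the enzyme that removes ribonucleotides from DNA, at -0.24 (adjusted p 0.00678), and the topoisomerase Top2b at -0.17 (adjusted p 0.0194). Of 11 histone chaperones and maintenance methylation genes, 2 rose, Supt16 at 0.18 (adjusted p 0.0485) and Nasp at 0.17 (adjusted p 0.0387), and none fell in the authors' deposited table. This called share of 18.2% lay near that of all genes tested.

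In nucleotide synthesis beyond the 54 genes, only the list of other deoxynucleotide enzymes had a called share above that of all genes tested. The shares called were 40% there, 20% for pyrimidine and 16.7% for purine synthesis, where 20.2% of all genes tested were called. Among tested genes in the members' range of means, 25.4% were called. Of 15 other deoxynucleotide enzymes tested, 1 rose and 5 fell in the authors' deposited table. These are 6.67% and 33.3%, where 9.05% of all genes tested were called positive and 11.1% negative. In the members' range of means, 11.7% of tested genes were called positive and 13.7% negative. Shmt1, which supplies one-carbon units on folate, fell at -0.36 (SE 0.084, adjusted p 0.000249), and Dguok, a mitochondrial deoxynucleoside kinase, fell at -0.31 (SE 0.096, adjusted p 0.0103). The paralogs Nme1 and Nme2 were also among those that fell, with Dctd; whether reads could be shared between the pair was not tested. Of 5 genes of de novo pyrimidine synthesis, 1 fell, Ctps2, a CTP synthase, at -0.27 (SE 0.055, adjusted p 1.54e-05). Of 12 genes of de novo purine synthesis, Adss rose by 0.21 (adjusted p 0.0157) and Impdh1 fell at -0.18 (adjusted p 0.0434) per the authors' deposited table.

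Among 17 E2F, RB family and S phase regulators that were tested, 4 rose and 2 fell in the authors' deposited table. The called share was 35.3% here and 33.3% in the G1 list below, where 20.2% of all genes tested were called. Among tested genes in the members' range of means, 25.4% were called. The pocket proteins Rb1 and Rbl2, which hold E2F factors in check, rose by 0.39 (SE 0.119, adjusted p 0.00768) and 0.30 (SE 0.091, adjusted p 0.00742). E2f4 and E2f5, which act as repressors with pocket proteins, fell at -0.31 (SE 0.069, adjusted p 0.00012) and -0.28 (SE 0.10, adjusted p 0.033). Tfdp2 and another E2F family member, E2f7, rose by 0.29 (SE 0.092, adjusted p 0.0104) and 0.18 (SE 0.069, adjusted p 0.0403). Of 9 G1 cyclins, CDK4/6 and CDK inhibitors with an adjusted p, Cdkn1a, which encodes the CDK inhibitor p21, rose by 0.62 (SE 0.071, adjusted p 1.81e-16), Cdkn2d rose by 0.32 (adjusted p 0.0161) and Cdkn1b fell at -0.25 (adjusted p 0.0193) per the authors' deposited table.

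Genes listed for mitosis were set beside the replication genes for comparison. Of 24 such genes, 16 rose, or 66.7%, and none fell in the authors' deposited table, where 9.05% of all genes tested were called positive. The other 8, Ccnb2 and Mki67 among them, did not pass the test. Positive signs were held by 23 of the 24, around a median of 0.22 (log2). Over all genes tested, 7026 of 13597 had a positive sign. In the members' range of means, 11.7% of tested genes were called positive. The mitotic list, like the others, was chosen with earlier results of these data known. The highest was Ccnf, which encodes cyclin F, at 0.42 (SE 0.058, adjusted p 3.08e-11), followed by the kinetochore motor Cenpe at 0.35 (SE 0.081, adjusted p 0.000218), and the lowest was Ccnb2 at -0.08 (adjusted p 0.578). Among the 54 replication and nucleotide supply genes, 22.2% were called and the median was 0.05. The difference between these lists was not tested. Of 12 reference genes, none rose and 2 fell, with a median of -0.01.

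**Figure D4:**
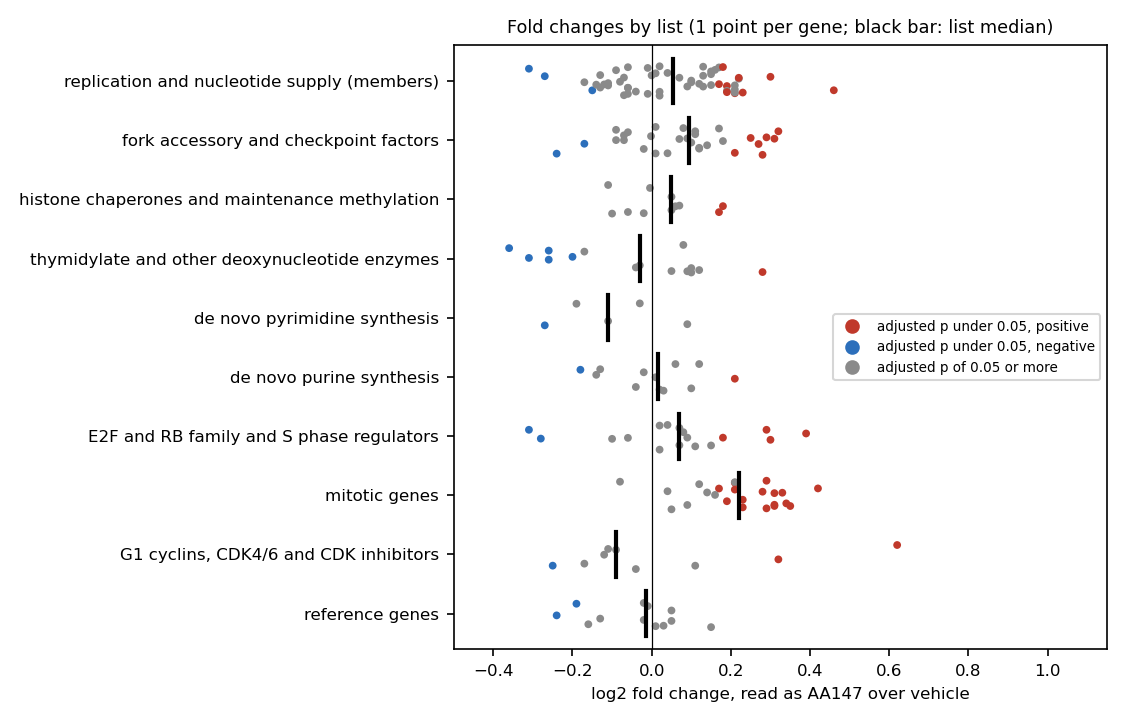
Log2 fold change (x axis, read as AA147 over vehicle) of every gene in each list (y axis) in the authors' deposited table, 1 point per gene, coloured by call, with the median of each list marked. The mitotic genes have a median of 0.22 and the replication and nucleotide supply genes one of 0.05.

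**Figure D5:**
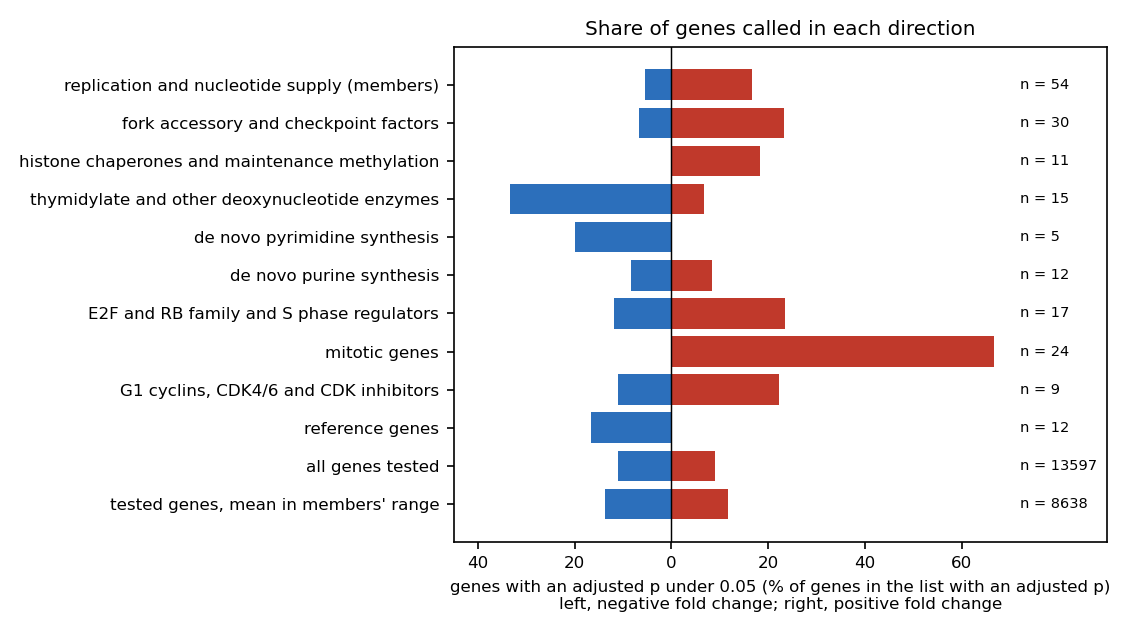
Share of genes (x axis, %) with an adjusted p under 0.05, negative to the left and positive to the right, for each list and for all 13597 genes tested. Of the replication and nucleotide supply genes 16.7% were called positive and 5.56% negative, and of the mitotic genes 66.7% were called positive. Over all genes tested, 9.05% were called positive and 11.1% negative.

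Reads of genes on opposite strands cannot be told apart in these non-stranded libraries. In GENCODE M39, 30 of the 54 genes share exon bases with a gene on the opposite strand, and 6 share at least 25% of them, Gins2, Fen1, Chaf1a, Rrm2, Rfc5 and Orc3, of which Rrm2 alone was called. A processed pseudogene at least 95% identical over at least 200 bases exists for 8 of the 54 genes, 3 of them called, Cdc6, Rrm2 and Uhrf1. The values of these genes are uncertain to the extent that reads were shared, which was not tested.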

How the data were processed

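RNA of 6 HT22 libraries, 3 with AA147 and 3 with vehicle, was sequenced by the authors, who deposited 1 table of gene results. Per the file headers, its columns are the mean normalized count over all libraries (a signal scaled by the authors for library depth), the log2 fold change with its SE, the test statistic (a score) and the p-value with its adjusted p-value. The submitters' processing notes name DESeq2 and mm9, and the aligner, counter and annotation are not given in the sources used here. The numerator of the fold change is not named.

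No value per library was at hand, so nothing was refitted, and depth per library, replicate spread and pairing could not be examined. The deposited means sum to 30768012. A gene was called at an adjusted p under 0.05, as given for 13597 of 16472 genes; the 2875 others had means up to 8.41. Intervals of 95% were computed from the authors' SEs. Implied group counts assume equal group sizes. The members and all gene lists and motifs were chosen with earlier results of these data known. Genes were named where called, or where highest or lowest of their role, with complexes given by subunit and from each other list the highest and lowest called genes. Transcript lengths and exon overlaps came from GENCODE M39 (GRCm39), similar transcripts from minimap2 2.31, and promoters from RefSeq (GRCm38.p6). Scripts ran in Python 3.11.15 with SciPy 1.17.1, statsmodels 0.14.6 and pandas 2.3.3. Only the calling of genes was tested on simulated fold changes. Alternatives were a stricter threshold, other sets of genes for the adjustment, other centring, a null interval, a rescaled statistic and subtraction of a trend on expression, transcript length and GC content. One gene of the other lists is not reported here by name.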

Additional observations from a re-analysis of the deposited data

How the results depend on the processing

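No paired analysis was possible because the deposited table holds no value per library. For the same reason, leaving out single replicates, another normalization and other count filters were not run. The 12 calls among the 54 genes, 9 positive and 3 negative, became 7, with 5 positive, at an adjusted p under 0.01, and 4, with 2 positive, against a null interval of 0.1, both stricter by construction. With the statistic divided by its robust SD of 2.03 no gene was called, 0 positive and 0 negative, and 347 of the 2741 calls over all genes were left; the cause of this wide statistic was not tested. The calls over all genes were 1818 at an adjusted p under 0.01 and 1430 against the null interval. Calls in the other lists together went from 45 to 26, 16 and 2 under these 3 settings, and those of the mitotic genes from 16 to 12, 10 and 1. The fork accessory calls went from 9 to 6, 2 and 0, the other deoxynucleotide enzymes from 6 to 3, 1 and 0, the E2F and RB list from 6 to 3, 1 and 0, and the G1 list from 3 to 1, 1 and 1. The purine list went from 2 to 0 in each, and also to 1 with adjustment over all genes or centring on reference genes and to 0 with the trend subtracted. The histone chaperone list went from 2 to 0 in each, to 0 with centring on abundant genes, and to 1 with adjustment over all genes or with the trend subtracted. The single pyrimidine call was lost with the rescaled statistic. Under the 5 other settings, 10 to 13 of the 54 genes were called, and their median stayed between 0.04 and 0.07 where it could move. Signs reversed for values near 0: Orc4 to -0.00011 and Mcm4 to -0.01 with the trend subtracted, Rfc2 and Rfc5 to 0.01 and Chaf1a to 0.0006 with centring on reference genes, Chaf1a to 0.01 with the trend subtracted, and E2f1 to -0.0048 with centring on abundant genes; the cause was not tested. Mcm8 was gained with adjustment over abundant genes or centring on reference genes, and Gins4 and Pola1 with the trend subtracted.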
